A study of Mus musculus with 14 samples.

Results

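Autophagy needs a set of proteins that build the autophagosome, and the accessible chromatin at the genes of that core machinery was measured here in splenic regulatory T cells (Tregs) with and without Atg14. The module has 39 genes. A region of the count table was taken as a promoter region of a member where its midpoint lay within 1 kb of a transcription start of that gene (RefSeq annotation of GRCm38), and regions whose nearest protein-coding start belonged to a member were taken separately. These rules gave 54 promoter regions and 153 nearest regions, 156 regions together out of 67254 in the table. All 39 members had a promoter region: 25 had 1, 13 had 2 and Gabarapl2 had 3. Outside the promoters lay 102 nearest regions, from 29 of the members. After edgeR's filter on low counts, 61366 regions were tested, among them all 54 promoter regions and 93 of the 102 others, so 147 of the 156.

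The libraries came from mixed BM chimeras, in which CD45.2+ BM of the genotype of interest and CD45.1+ wild-type BM were mixed in equal parts and given to sublethally irradiated Rag1-/- mice, hosts that have no T or B cells of their own, for 6 to 8 weeks. Control BM was Foxp3Cre Atg14+/fl and Atg14-deficient BM was Foxp3Cre Atg14fl/fl, so that all 4 groups carried the Cre, which is driven by Foxp3 and acts in Tregs, and the controls kept a single unfloxed allele. From the spleen, CD4+ Foxp3-YFP+ cells of the CD45.2+ compartment were sorted into central Tregs (cTregs, CD44–CD62L+) and effector Tregs (eTregs, CD44+CD62L–). Each state had 3 control and 4 Atg14-deficient libraries, which makes 14 libraries of bulk ATAC-seq. The methods name 3 control and 4 Atg14-deficient chimeras, and the labels do not state which cTreg and eTreg libraries came from the same mouse. Counts in regions ranged from 2242983 to 5548189 per library, with a median of 23 per tested region, and replicate libraries varied with a coefficient of 25.6% beyond counting error.

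Autophagy begins when the ULK kinase complex (Ulk1 or Ulk2 with Atg13, Rb1cc1 and Atg101) is released from nutrient-dependent inhibition. It activates the Vps34 lipid kinase complex that contains Atg14, and the phosphoinositide made there recruits WIPI proteins and Zfyve1. Atg9a vesicles, the scramblases Vmp1 and Tmem41b and the lipid carriers Atg2a and Atg2b supply the growing membrane. A conjugation system then joins Atg12 to Atg5 through Atg7 and Atg10, and the product, with Atg16l1, attaches the ATG8 proteins (the LC3 proteins and GABARAPs) to the membrane after Atg4 proteases have trimmed them and Atg3 has carried them. Receptors such as Sqstm1, Optn and Nbr1 link cargo to the ATG8 proteins, and Stx17, Epg5 and Tecpr1 serve the fusion with lysosomes. In Tregs, autophagy is known to support survival and lineage stability. Atg14 itself acts just upstream of most of these proteins and is not a member.

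The sequences behind the clearest differences were taken from the GRCm38 reference. The first set holds exon-free stretches of 4 promoter regions that were more accessible in Atg14-deficient eTregs than in Atg14-deficient cTregs, and is shown because these are the promoters where the cell states differed whether or not GC content was corrected for. Each is written 5′ to 3′ on the strand of the member gene, and capitals mark a match, on either strand, to the AP-1 motif TGANTCA (bound by factors such as BATF and JUN) or to the E-box CACGTG (bound by TFEB, TFE3 and MITF).
Atg2a, chr19:6241342-6241477, + strand: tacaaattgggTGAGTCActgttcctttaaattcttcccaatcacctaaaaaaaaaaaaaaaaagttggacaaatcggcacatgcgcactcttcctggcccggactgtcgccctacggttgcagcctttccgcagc
Gabarap, chr11:69990928-69991127, + strand: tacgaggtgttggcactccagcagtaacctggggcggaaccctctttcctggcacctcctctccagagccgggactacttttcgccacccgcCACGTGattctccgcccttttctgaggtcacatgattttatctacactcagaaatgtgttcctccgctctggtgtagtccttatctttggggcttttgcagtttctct
Atg2b, chr12:105685459-105685599, - strand: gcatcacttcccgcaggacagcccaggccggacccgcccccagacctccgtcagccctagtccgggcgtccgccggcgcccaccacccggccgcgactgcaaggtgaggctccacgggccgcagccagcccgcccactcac
Gabarapl2, chr8:111939988-111940187, + strand: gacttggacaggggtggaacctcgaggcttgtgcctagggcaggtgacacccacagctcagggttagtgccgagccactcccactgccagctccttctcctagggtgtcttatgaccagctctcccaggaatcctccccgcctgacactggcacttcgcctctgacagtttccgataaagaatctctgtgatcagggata
The Atg2a stretch held an AP-1 match at its bases 12 to 18, the Gabarap stretch held an E-box at bases 93 to 98, and the other two held no match to any motif searched.

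The second set holds the central 200 bases of the 4 regions outside promoters whose accessibility differed between eTregs and cTregs in both genotypes. Here capitals also mark the forkhead motif GTAAACA (FOXO factors) and the RUNX motif TGTGGTT, again on either strand.
Sqstm1, upstream, chr11:50213082-50213281, - strand: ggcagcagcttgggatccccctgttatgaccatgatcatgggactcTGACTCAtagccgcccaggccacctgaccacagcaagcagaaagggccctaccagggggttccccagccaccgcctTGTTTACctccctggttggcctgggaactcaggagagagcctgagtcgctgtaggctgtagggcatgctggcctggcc
Atg10, intron, chr13:91091660-91091859, - strand: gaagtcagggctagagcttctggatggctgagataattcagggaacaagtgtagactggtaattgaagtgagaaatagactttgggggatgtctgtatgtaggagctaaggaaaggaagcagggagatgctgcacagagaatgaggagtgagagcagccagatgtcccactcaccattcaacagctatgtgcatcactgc
Wipi1, intron, chr11:109591622-109591821, - strand: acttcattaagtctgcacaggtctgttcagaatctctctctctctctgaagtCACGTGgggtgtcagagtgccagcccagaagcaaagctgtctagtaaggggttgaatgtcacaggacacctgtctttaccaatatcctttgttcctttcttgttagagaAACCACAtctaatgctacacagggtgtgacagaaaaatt
Tax1bp1, upstream, chr6:52691839-52692038, + strand: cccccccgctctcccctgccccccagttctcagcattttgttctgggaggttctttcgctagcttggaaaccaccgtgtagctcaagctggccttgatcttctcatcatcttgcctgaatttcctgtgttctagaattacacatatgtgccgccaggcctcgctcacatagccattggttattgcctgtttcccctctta
The Sqstm1 stretch held an AP-1 match at bases 47 to 53 and a forkhead match at 123 to 129, the Wipi1 stretch an E-box at 53 to 58 and a RUNX match at 162 to 168, and those of Atg10 and Tax1bp1 held none.

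The third set is from regions more accessible in eTregs within the introns of Atg7, which encodes the activating enzyme of both conjugation systems, and of Vmp1. Capitals mark AP-1 and, as CTTTGAT, the TCF/LEF motif.
Atg7, first region, chr6:114656977-114657176, + strand: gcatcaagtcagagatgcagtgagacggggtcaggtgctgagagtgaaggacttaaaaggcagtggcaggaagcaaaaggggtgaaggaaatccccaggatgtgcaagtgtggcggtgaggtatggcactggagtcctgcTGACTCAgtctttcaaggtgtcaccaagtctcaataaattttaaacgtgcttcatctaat
Atg7, second region, chr6:114657886-114658085, + strand: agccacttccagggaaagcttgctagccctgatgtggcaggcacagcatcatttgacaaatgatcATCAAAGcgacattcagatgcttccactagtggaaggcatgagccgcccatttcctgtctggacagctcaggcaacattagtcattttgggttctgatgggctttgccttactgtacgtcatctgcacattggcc
Vmp1, chr11:86652676-86652875, - strand: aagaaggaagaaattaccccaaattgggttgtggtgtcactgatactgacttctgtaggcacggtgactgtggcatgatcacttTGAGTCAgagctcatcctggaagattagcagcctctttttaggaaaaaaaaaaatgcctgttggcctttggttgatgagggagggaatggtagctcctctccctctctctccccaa
AP-1 matches lay at bases 141 to 147 of the first Atg7 stretch and 85 to 91 of the Vmp1 stretch, and the TCF/LEF match at bases 66 to 72 of the second Atg7 stretch.

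Accessibility is given as CPM (the count divided by the library's total in regions and scaled, the usual counts-per-million unit). The sort was checked at markers of the cells. At promoter regions of the cTreg genes Ccr7, Tcf7, Bach2 and Satb1 the group means were higher in cTregs than in eTregs in both genotypes, for Ccr7 at 30.2 against 11.1 CPM in controls and 37.3 against 19.5 CPM without Atg14, and for Satb1 at 94.5 against 52.8 and 90.8 against 57.7 CPM. Lef1 was at 72.1 against 62.5 CPM in controls and 72.8 against 78.8 CPM without Atg14. The list of 8 eTreg genes, of which Il10 had no promoter region, overlapped (325 to 386 CPM in cTregs, 311 to 405 in eTregs). By group means, Klrg1, Prdm1, Maf and Tigit were higher in eTregs in both genotypes, and Icos, Gata3 and Batf were lower. Icos was at 38.9 CPM in cTregs against 22.8 in eTregs in controls, and at 45.4 against 26.2 CPM without Atg14. The eTreg promoters thus did not check the sort. Foxp3 had no region within 1 kb of a start, so its promoter gave no check, and the 3 other Treg genes, Il2ra, Ikzf2 and Ctla4, summed to between 109 and 149 CPM in cTregs and between 80 and 107 CPM in eTregs. No region lay at the promoters of 4 B cell or 2 erythroid genes, while Cd8b1 had 10.3 to 21.4 CPM in cTregs and 1.54 to 6.83 in eTregs, and 2 of 5 myeloid genes had regions, at 7.58 to 22.2 CPM over all libraries. The part of other cells in the results below was not tested. The promoter of Atg14 (chr14:47567952-47568659) had 24.2 ± 6.12 CPM (SD, n = 3) in eTregs of controls and 24.8 ± 3.91 (SD, n = 4) without Atg14, but the labels do not give the deleted exon and this region may lie outside it, so that it does not check the deletion.

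Where genes are compared with each other, accessibility is given as CPM per kb of region. By the promoter region with the most counts of each gene, 28 of 39 members were above the median of all tested promoter regions (40.3 CPM per kb), with a median member of 67.5. With all 54 promoter regions of the members counted, as they are for the other genes, the median was 50.6. Tmem41b, the endoplasmic reticulum scramblase, was highest at 208 CPM per kb averaged over the libraries, followed by Atg10, the E2-like enzyme for Atg12, at 207, and by Epg5, a tether for lysosome fusion, at 190. In CPM, the Tmem41b region (chr7:109986148-109986663) had 122, 103 and 112 in control cTregs, 115, 96.6, 113 and 106 in Atg14-deficient cTregs, 108, 105 and 111 in control eTregs and 97.1, 114, 104 and 97.6 in Atg14-deficient eTregs. All 4 groups overlapped. At Atg10 (chr13:91223640-91224339) the values were 143, 128 and 154, then 141, 162, 159 and 119, then 190, 150 and 162, and then 114, 137, 147 and 119 CPM in the same order, with the highest library a control eTreg. Epg5 had 96.3, 107 and 110 CPM, then 102, 98.1, 106 and 89.0, then 125, 115 and 111, then 98, 100, 103 and 98.6 in the same order of groups. Its 3 control eTreg libraries were the highest of the 14.

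At the other end were Atg7 at 9.67 CPM per kb, Wdr45, an X-linked WIPI protein, at 15.3, and Atg4c, a protease of ATG8 proteins, at 16.1. The single promoter region of Atg7 (chr6:114643820-114644098) has its midpoint 832 bp inside the gene, so no region of the table lay on the start itself, and it had 2.44, 1.68 and 4.01 CPM in control cTregs, 1.68, 3.11, 2.10 and 1.61 in Atg14-deficient cTregs, 1.95, 3.67 and 2.16 in control eTregs and 2.4, 4.18, 2.65 and 4.11 in Atg14-deficient eTregs. These values are near the lower limit of the table and overlapped between all groups. The values of Wdr45 and Atg4c in each library are given with their comparisons. Neighbours in this order are close against the spread between libraries, as the median member had a coefficient of variation of 17.2% over the 14 libraries. Promoter regions of 9 members also served a neighbouring protein-coding gene: Ap3s1 beside Atg12, Harbi1 beside Atg13, Gskip beside Atg2b, Slc35a5 beside Atg3, Psmd10 beside Atg4a, Thap4 beside Atg4b, Ankzf1 beside Atg9a, Brca1 beside Nbr1 and Ptrh2 beside Vmp1. At these the count cannot be assigned to a single gene.

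**Figure D1:**
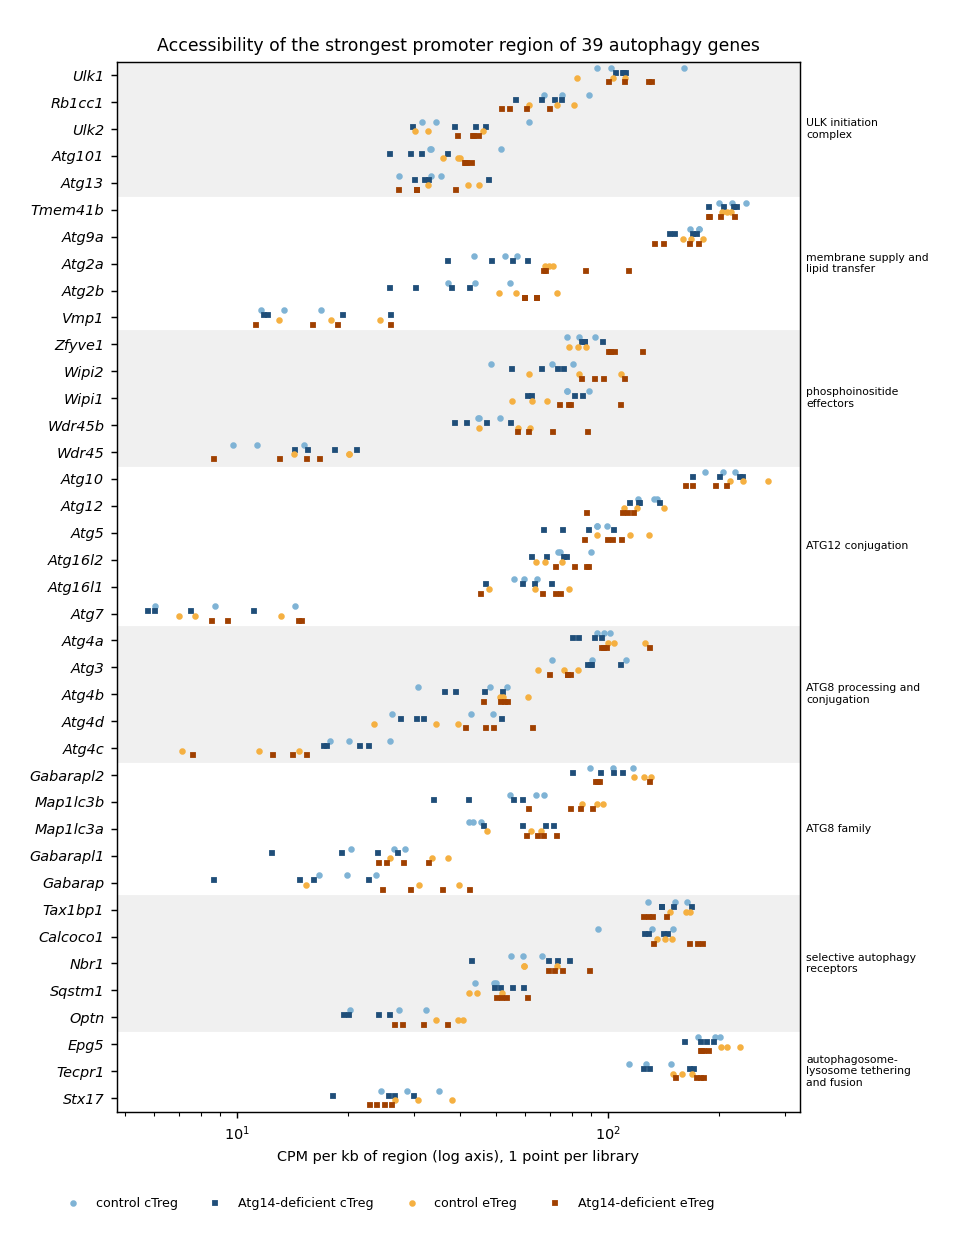
CPM per kb (log axis) of the promoter region with the most counts of each of the 39 genes, 1 point per library, coloured by group and ordered within 8 role groups (shaded bands). Levels range from Atg7 (mean 9.67) to Tmem41b (mean 208).

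Member promoter regions had a median length of 548.5 bp, a median GC content of 60.7% and a median CPM of 31.1. For all 14749 promoter regions of protein-coding genes (14280 tested) the medians were 527 bp, 61.8% and 22.7 CPM. By their midpoints, 19 of the 54 lay in a 5′ UTR, 18 upstream in intergenic sequence, 12 in introns and 3 in coding exons. The tested regions outside promoters were weaker, with a median of 4.91 CPM against 5.34 for all such regions, and of all 102 such regions 68 lay in introns and 24 between genes. Intervals and errors below come from the spread between libraries, and low counts add counting error to it.

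Loss of Atg14 was compared first in eTregs, to ask whether removing this subunit of the Vps34 complex changed chromatin at the rest of the machinery. No promoter region or other region of a member had both an adjusted p under 0.05 and a log2 change of more than 0.5 in Atg14-deficient against control eTregs (edgeR's quasi-likelihood test), a threshold that 0.0228% of all tested regions passed. DESeq2's Wald test also gave 0 at the adjusted threshold, and 7 of the 144 tested nearest regions at the unadjusted one, where edgeR gave 8. At an unadjusted p below 0.05 with the same fold change, 1 of 54 promoter regions passed by either tool (1.85%), where 4.36% of all promoter regions and 6.36% of all tested regions did by edgeR. The smallest adjusted p among the members was 0.434, and promoter fold changes stayed within 0.62 on the log2 scale with a median standard error of 0.19. In bulk libraries, fewer cells with a region open and less opening per cell cannot be told apart.

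Atg4d, a protease that trims and releases ATG8 proteins, was that promoter (chr9:21265016-21265488). It had 11.1, 16.3 and 18.7 CPM in control eTregs and 23.4, 22.2, 19.6 and 29.8 CPM in Atg14-deficient eTregs. The lowest library without Atg14 was above the highest control in eTregs, and in cTregs, with 20.3, 12.4 and 23.2 against 15.1, 24.5, 13.1 and 14.5 CPM, the groups overlapped. The log2 fold change in eTregs was 0.61 ± 0.26 (SE), with an unadjusted p of 0.0273 and an adjusted p of 0.568. Without Atg14-deficient eTreg replicate 4 it was 0.48, and without control eTreg replicate 1 it was 0.44, both below the fold threshold. With the replicate number as a block it was 0.58 and no longer passed the unadjusted threshold, at which the block then called 0 of the 54 promoter regions. In this and other comparisons of genotypes, the block also joins control and Atg14-deficient libraries of 1 number, which come from different chimeras. Its counts there follow no pairing in the design.

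Below the fold threshold, 3 well-covered promoters had the smallest p-values. Wipi1, which encodes a reader of the Vps34 product, had 52.0, 64.6 and 58.8 CPM in control and 74.0, 69.9, 74.9 and 102 CPM in Atg14-deficient eTregs (chr11:109611278-109612218). Its Atg14-deficient eTregs lay above the control eTregs without overlap (log2 fold change 0.46 ± 0.15, adjusted p = 0.434). Atg10 went the other way at its promoter (chr13:91223640-91224339), with 190, 150 and 162 CPM in control and 114, 137, 147 and 119 CPM in Atg14-deficient eTregs. All of the latter were lower (log2 fold change -0.37 ± 0.12, adjusted p = 0.445). Zfyve1, which encodes the omegasome protein DFCP1, was estimated at 0.38 ± 0.13 on the log2 scale (adjusted p = 0.472), with 48.8, 46.4 and 51.4 CPM in control and 59.9, 59.4, 73.3 and 61.6 CPM in Atg14-deficient eTregs, also apart. These 3 were named after their values were seen. In all, 9 of the 54 promoter regions (16.7%) had no overlap between the genotypes in eTregs, 5 higher and 4 lower, against 9.96% of all tested promoter regions, of which 4.36% were called at the unadjusted threshold.

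By role, the median log2 fold change in eTregs was 0.34 over the 6 promoter regions of the phosphoinositide effectors, of which 5 were above 0 and Wdr45 was the exception at -0.45. It was 0.19 over 11 regions of the ATG8 family, 0.21 over 7 of the cargo receptors, 0.13 over 7 of the ULK complex, 0.03 over 7 of ATG8 processing, -0.01 over 7 of membrane supply, -0.06 over 6 of ATG12 conjugation and -0.22 over 3 of tethering and fusion. Across the 54 it was 0.12, with 33 above 0, against 0.01 over all tested promoter regions and 0.06 over all tested regions. With offsets for GC content the same 3 medians were 0.05, -0.05 and -0.01. These are descriptions of the fitted values and not tests of the groups.

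Outside the promoters, 7 of 93 tested regions (7.53%) passed the unadjusted threshold in eTregs, 5 higher and 2 lower with Atg14 loss, beside 6.36% of all regions. Together with the promoter this was 8 of 147, 6 higher and 2 lower. That count was 2 without Atg14-deficient eTreg replicate 1, 4 without control eTreg replicate 1 or 3, 5 without Atg14-deficient eTreg replicate 4 and 14 without control eTreg replicate 2. It was 3 with a replicate block, and its split turned to 3 higher and 4 lower with TMM normalization and to 2 higher and 5 lower with the block and GC-content offsets. The smallest p among those belonged to a region in the 3′ UTR of Adat1 for which Gabarapl2 is the nearest start (chr8:111964312-111964596). It had 1.30, 2.62 and 1.80 CPM in control eTregs and 10.5, 5.86, 6.88 and 1.54 CPM in Atg14-deficient eTregs, where 3 of the 4 libraries were higher and the other was within the range of the controls (log2 fold change 1.66 ± 0.69, unadjusted p = 0.0224, adjusted p = 0.56). The next was in an intron of Zcchc14 near Map1lc3b, the gene of the ATG8 protein LC3B (chr8:121602885-121603189), with 4.55, 8.40 and 3.60 CPM against 12.9, 5.44, 9.53 and 12.3 CPM, groups that overlapped (log2 fold change 0.89 ± 0.38, unadjusted p = 0.0266, adjusted p = 0.567).

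In cTregs, none of the 54 promoter regions passed even the unadjusted threshold with either tool, where edgeR called 1.98% of all promoter regions and 3.34% of all tested regions, and at the adjusted threshold edgeR called none of the 147, beside 0.0163% of all regions. DESeq2 called none of the promoter or nearest regions at the adjusted threshold and 4 nearest regions at the unadjusted one, where edgeR called 3. The 3 became 7 without Atg14-deficient cTreg replicate 4 or control cTreg replicate 3, 5 without Atg14-deficient cTreg replicate 3 or control cTreg replicate 2, and 5 with the replicate block. The median promoter fold change was -0.07 against -0.04 over all promoter regions and 0.03 over all tested regions, with 20 of 54 above 0. The promoter of Map1lc3a, which encodes the ATG8 protein LC3A, was named after its values were seen and lay just under the fold threshold (chr2:155276148-155276598). It had 19.6, 19.1 and 20.5 CPM in control and 21, 32.3, 26.6 and 30.8 CPM in Atg14-deficient cTregs, and it alone of the 54 (1.85%, against 5.5% of all promoter regions, of which 1.98% were called) had no overlap between the genotypes. Its log2 fold change was 0.49 ± 0.20 (unadjusted p = 0.0221, adjusted p = 1).

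Of the 93 regions outside promoters, 3 (3.23%) passed the unadjusted threshold in cTregs. A region in an intron of Atg10, 72.9 kb downstream of an alternative start (chr13:91094216-91094596), had 16.1, 17.7 and 7.13 CPM in control and 29.0, 19.1, 24.2 and 33.4 CPM in Atg14-deficient cTregs, all higher (log2 fold change 0.91 ± 0.27, unadjusted p = 0.00227, adjusted p = 1). A region upstream of Stx17, the SNARE of autophagosome fusion (chr4:48116256-48116553), had 9.78, 5.27 and 3.57 against 0.84, 3.89, 3.68 and 1.93 CPM, which overlapped (-1.25 ± 0.49, unadjusted p = 0.0156, adjusted p = 1). Near Calcoco1, a receptor of the endoplasmic reticulum (chr15:102753191-102753513, an intron of Gm36560), the values were 5.87, 5.27 and 4.46 against 4.20, 2.34, 0.526 and 1.93 CPM, all lower (-1.28 ± 0.54, unadjusted p = 0.023, adjusted p = 1). The last 2 rest on few counts.

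**Figure D2:**
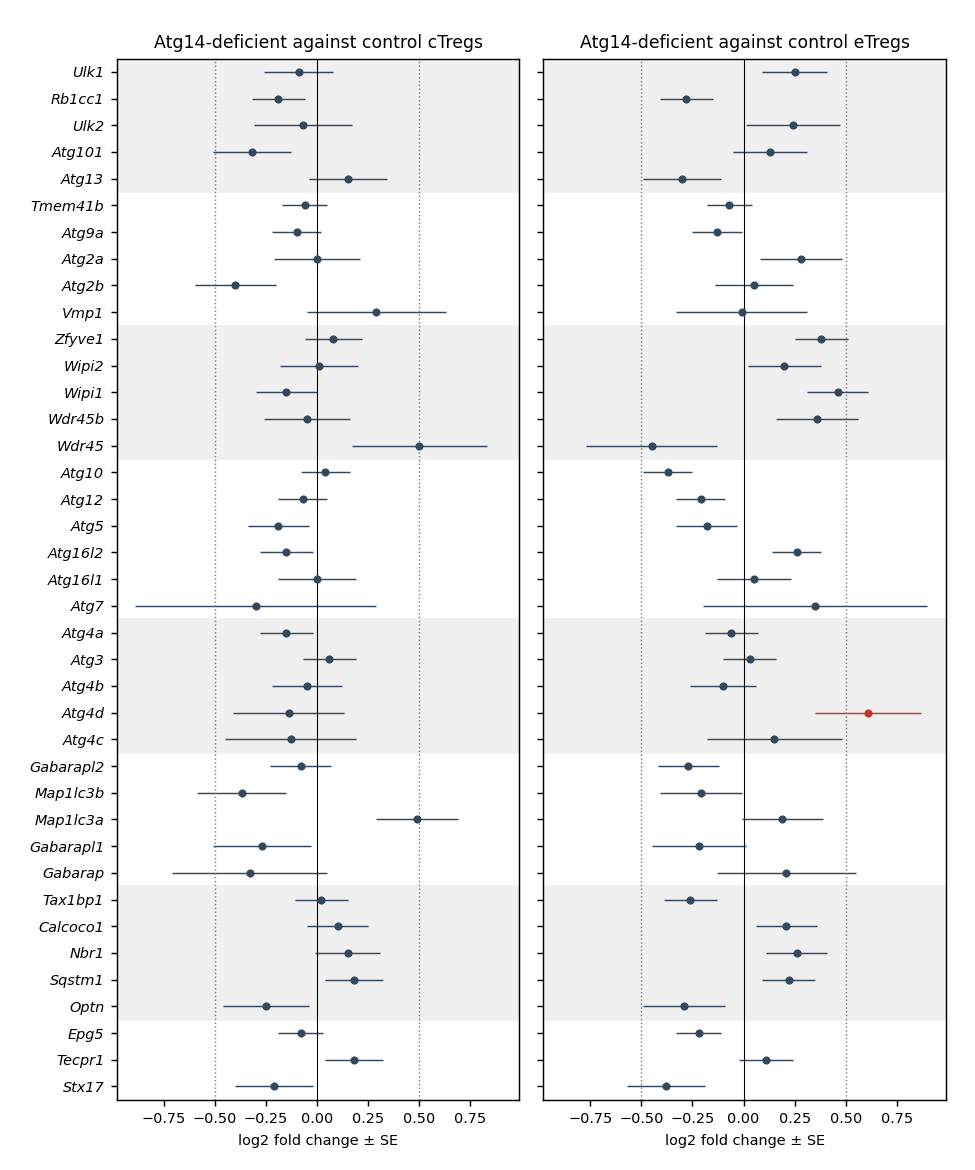
Log2 fold change ± SE of Atg14-deficient against control cells in cTregs (left) and eTregs (right) at the promoter region with the most counts of each gene, in the same role order as the plot of levels. The red point, Atg4d in eTregs (0.61), is the 1 region past the unadjusted threshold, and no region passed the adjusted one.

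The effect of Atg14 loss itself was then compared between the cell states by the interaction term. No member region passed the adjusted threshold in edgeR or in DESeq2, and 0% of all regions did in edgeR. At the unadjusted threshold 2 promoter regions passed (3.7%, against 2.91% of all promoter regions and 3.05% of all tested regions) and no region outside promoters, while DESeq2 gave 2 promoter regions and 4 nearest regions. At Wipi1 the effect was higher in eTregs than in cTregs by 0.61 ± 0.21 on the log2 scale (unadjusted p = 0.00675, adjusted p = 1). In cTregs this promoter had 73.1, 73.0 and 83.8 CPM in controls and 57.5, 77.1, 58.9 and 81.0 CPM without Atg14, which overlapped, and its eTreg values are given above. Wdr45, an X-linked relative of Wipi1, had the opposite interaction (chrX:7721811-7722358), with 8.31, 6.22 and 5.35 against 10.1, 8.56, 7.89 and 11.6 CPM in cTregs and 7.81, 11.0 and 11.0 against 7.19, 9.20, 4.76 and 8.48 CPM in eTregs. The interaction was -0.94 ± 0.46 (unadjusted p = 0.0485, adjusted p = 1), and in each cell state the genotypes overlapped. Its unadjusted call was lost in 8 of the 14 fits that left out 1 library, and that of Wipi1 without Atg14-deficient eTreg replicate 4 (0.47).

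The larger differences were between the cell states. In control mice, no promoter region of a member passed the adjusted threshold between eTregs and cTregs by edgeR or DESeq2 (2.74% of all promoter regions and 5.3% of all tested regions did by edgeR), and 4 of 54 passed the unadjusted threshold with either tool, by edgeR 3 higher and 1 lower in eTregs (7.41%, against 10.1% of all promoter regions and 18.2% of all tested regions). Without Atg14, 7 of 54 promoter regions were called at the adjusted threshold (13%), all 7 higher in eTregs, against 7.7% of all promoter regions and 9.81% of all tested regions. At the unadjusted threshold 13 were called, 11 higher and 2 lower (24.1%, against 16.9% of all promoter regions and 23.1% of all tested regions). The 7 belonged to 6 genes, the lipid carriers Atg2a and Atg2b, the ATG8 genes Gabarap (2 regions), Gabarapl2 and Map1lc3b, and the WIPI gene Wdr45b. None of the 7 had an interaction p below 0.05, so a difference between the genotypes in this contrast was not shown.

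Atg2b shares its promoter region with Gskip (chr12:105684966-105685599). It had 27.9, 34.5 and 23.6 CPM in control cTregs, 19.3, 16.4, 24.2 and 27.0 in Atg14-deficient cTregs, 46.2, 36.0 and 32.4 in control eTregs and 41, 41, 37.9 and 38 in Atg14-deficient eTregs. Without Atg14 all eTregs lay above all cTregs, and in controls the groups overlapped. On the log2 scale the difference between the states was 0.85 ± 0.18 (adjusted p = 0.00379) without Atg14 and 0.39 ± 0.20 (adjusted p = 0.284) in controls.

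Atg2a (chr19:6241342-6241814) had 26.9, 20.6 and 25.0 CPM in control cTregs, 17.6, 28.8, 23.1 and 26.3 in Atg14-deficient cTregs, 33.8, 32.8 and 32.1 in control eTregs and 31.8, 32.2, 41.3 and 53.9 in Atg14-deficient eTregs. All 7 eTreg libraries were higher than all 7 cTreg libraries, in either genotype. The log2 fold change was 0.74 ± 0.19 without Atg14 (adjusted p = 0.0138) and 0.45 ± 0.22 in controls (adjusted p = 0.249). The call was lost without Atg14-deficient eTreg replicate 4 (0.55), cTreg replicate 1 (0.62) or cTreg replicate 3 (0.72).

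The ATG8 family, the ubiquitin-like proteins that coat the autophagosome, held 4 of the 7 calls. Upstream of Gabarapl2 (chr8:111939826-111940187, midpoint 696 bp before the start) there were 18.1, 25.8 and 22.3 CPM in control cTregs, 15.1, 15.6, 15.2 and 24.4 in Atg14-deficient cTregs, 27.3, 31.8 and 35 in control eTregs and 35.1, 40.6, 22.8 and 33.9 in Atg14-deficient eTregs. The control groups did not overlap, whereas replicate 4 of the deficient cTregs lay above replicate 3 of the deficient eTregs. The log2 fold changes were 0.90 ± 0.21 without Atg14 (adjusted p = 0.00759) and 0.51 ± 0.24 in controls (adjusted p = 0.218). The stronger region of the same gene, at the start (chr8:111940343-111940858), had fold changes of 0.08 and 0.27 and was not called.

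Map1lc3b (chr8:121590194-121590562) had 24.9, 23.7 and 20.1 CPM in control cTregs, 12.6, 15.6, 21.8 and 20.6 in Atg14-deficient cTregs, 35.8, 31.5 and 34.6 in control eTregs and 29.4, 22.6, 31.2 and 33.6 in Atg14-deficient eTregs. Within each genotype all eTregs lay above all cTregs. The log2 fold change was 0.72 ± 0.20 (adjusted p = 0.02) without Atg14 and 0.56 ± 0.22 (adjusted p = 0.139) in controls.

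Gabarap was weak at both of its regions. Before the start (chr11:69990857-69991127) it had 3.42, 3.83 and 4.46 CPM in control cTregs, 0.84, 2.34, 3.68 and 6.10 in Atg14-deficient cTregs, 6.51, 5.77 and 7.57 in control eTregs and 6.89, 5.02, 9 and 14.9 in Atg14-deficient eTregs, with an overlap between the deficient groups. After the start (chr11:69991345-69991682) it had 5.62, 6.70 and 8.03, then 2.94, 5.45, 5 and 7.71, then 5.20, 13.4 and 10.5, and then 8.39, 10.0, 12.2 and 14.4 CPM in that order of groups, where the deficient groups did not overlap. The log2 fold changes without Atg14 were 1.43 ± 0.42 (adjusted p = 0.0285) and 1.08 ± 0.34 (adjusted p = 0.0397), the largest of the 7.

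Wdr45b (chr11:121354229-121354732) had 25.9, 22.5 and 22.7 CPM in control cTregs, 27.7, 19.5, 21 and 23.8 in Atg14-deficient cTregs, 31.2, 28.9 and 22.7 in control eTregs and 36.0, 28.9, 31.0 and 44.7 in Atg14-deficient eTregs. The deficient eTregs were all above the deficient cTregs (0.62 ± 0.19, adjusted p = 0.0321), and in controls the fold change was 0.21 ± 0.21 (adjusted p = 0.648). Wipi2, the WIPI protein that recruits Atg16l1, missed the threshold without Atg14 (0.51, adjusted p = 0.0556). With the replicate number as a block Wipi2 was called, and with the block and GC-content offsets it was not.

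GC content moved with the cell state and was higher at promoters than elsewhere. At a GC content of 65%, the fitted deviation of a library from the others on the log2 scale was between 0.01 and 0.17 in the 7 eTreg libraries and between -0.14 and -0.02 in the 7 cTreg libraries. With offsets for GC content, 4 of the 7 promoter regions were called without Atg14 (Atg2a, Atg2b, Gabarapl2 and the Gabarap region before the start), and the median over the 54 was 0.07 instead of 0.20. For all promoter regions that median was -0.02 instead of 0.12. The share of all promoter regions called with these offsets, or with 1 library left out, is not given here. Whether the members exceed that share in these fits is therefore not shown. The part of GC content in the result was not tested further. Leaving out 1 library left between 2 and 8 promoter calls, with 2 (Atg2b and Gabarapl2) without Atg14-deficient eTreg replicate 4 and 3 without replicate 1, 2 or 3 of the Atg14-deficient cTregs, and Atg2b and Gabarapl2 were called in each of these fits.

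**Figure D3:**
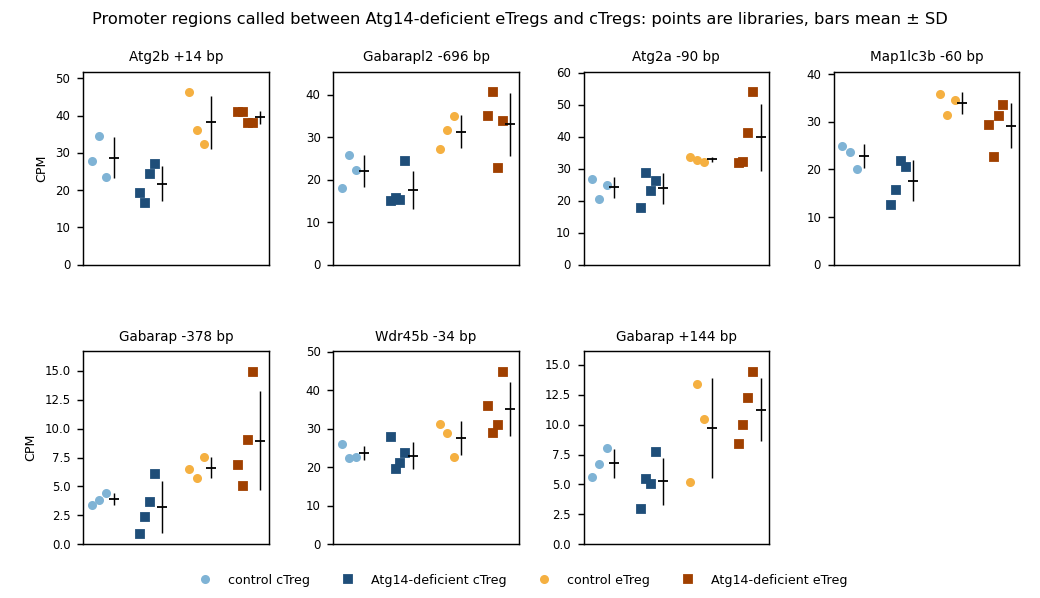
CPM (linear axes from 0) at the 7 member promoter regions called between Atg14-deficient eTregs and cTregs, titled by gene and distance from the start to the midpoint of the region, with points for libraries and bars for the mean ± SD of each group. In Atg2a all eTreg libraries (31.8 and above) lie above all cTreg libraries (28.8 and below).

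By role, the ATG8 family stood highest, with 10 of 11 promoter regions above 0 and a median log2 fold change of 0.40 without Atg14, and 9 of 11 and a median of 0.41 in controls. The exception in both was the second Map1lc3b region (-0.38 and -0.57, adjusted p = 0.411 and 0.325), joined in controls by a second Gabarapl2 region at -0.24. The medians without Atg14 were 0.26 for the phosphoinositide effectors, 0.21 for the cargo receptors, 0.20 for membrane supply, 0.17 for ATG12 conjugation, 0.15 for ATG8 processing, 0.11 for the ULK complex and 0.02 for tethering and fusion. The 7 called promoter regions lay in the ATG8 family, membrane supply and the phosphoinositide effectors, and the other 5 role groups had none. All 54 regions had a median of 0.20 (40 above 0) without Atg14 and 0.14 (34 above 0) in controls, beside 0.12 and 0.06 over all tested promoter regions.

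The 1 promoter lower in eTregs at the unadjusted threshold in controls was Atg4c (chr4:99193782-99194330). It had 14.2, 11.0 and 9.81 CPM in control cTregs, 11.8, 12.5, 9.47 and 9.64 in Atg14-deficient cTregs, 3.90, 6.30 and 8.11 in control eTregs and 7.79, 4.18, 6.88 and 8.48 in Atg14-deficient eTregs. Every eTreg library was below every cTreg library. The log2 fold changes were -0.91 ± 0.34 in controls (unadjusted p = 0.0127, adjusted p = 0.121) and -0.63 ± 0.30 without Atg14 (adjusted p = 0.183). It and the Atg2a region were the only 2 of the 54 with complete separation of all 7 eTreg from all 7 cTreg libraries. How many of all promoter regions separate in this way was not counted, so this number is not a result about the members. Within controls 13 of 54 promoter regions (24.1%) had no overlap between the states, 10 higher and 3 lower, against 23% of all promoter regions, and without Atg14 the same numbers were reached against 15.4%.

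**Figure D4:**
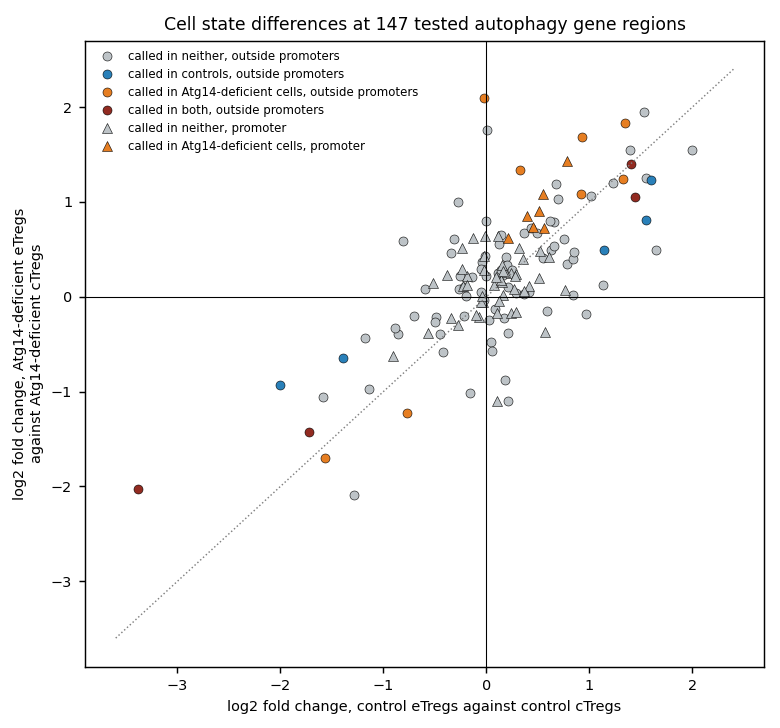
Log2 fold change of eTregs against cTregs in control cells (horizontal) and Atg14-deficient cells (vertical) at the 147 tested member regions, with promoters as triangles, other regions as circles and colours for the genotype in which a region passed the adjusted threshold. The 4 dark red circles were called in both genotypes, and the 7 orange triangles are the called promoters. The dotted line marks equal values.

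Away from the promoters calls between the states went in both directions. In controls 9 of 93 regions (9.68%) were called at the adjusted threshold, 5 higher and 4 lower in eTregs, against 5.3% of all tested regions, and 23 (24.7%) at the unadjusted threshold, against 18.2%. Without Atg14 it was 12 of 93 (12.9%), 8 higher and 4 lower, against 9.81%, and 25 (26.9%) against 23.1%. Of all 24 member regions called in either genotype, 4 were called in both, which is 44.4% of the 9 control calls and 21.1% of the 19 deficient calls. That number depended on the fit, from 3 with scaling by the promoter total to 7 by DESeq2 and 9 with the replicate number as a block. The fold changes had the same sign in both genotypes at 23 of the 24, and none had an unadjusted interaction p below 0.05 (the smallest was 0.0518, adjusted p = 1, at the Gabarapl2 region 23.8 kb from its start). The shared calls and the agreement of sign over all tested regions are not given here. The numbers for the members therefore have no background and are not a result about them.

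Tax1bp1 encodes a cargo receptor that also restrains NF-kappaB signalling, and the region 21.8 kb upstream of it (chr6:52691760-52692119, intergenic) was lower in eTregs in both genotypes. It had 10.3, 9.09 and 7.13 CPM in control cTregs, 4.20, 7.40, 7.89 and 8.67 in Atg14-deficient cTregs, 0.651, 1.57 and 0.36 in control eTregs and 0.599, 4.18, 1.59 and 1.03 in Atg14-deficient eTregs. All cTregs lay above all eTregs, and replicate 1 of the deficient cTregs and replicate 2 of the deficient eTregs nearly met. The log2 fold changes were -3.38 ± 0.60 (adjusted p = 0.00121) and -2.03 ± 0.49 (adjusted p = 0.00911), the largest in controls among the calls. The control eTreg values, at most 1.57 CPM, rest on few counts, so the size of that change is uncertain. Another region, in an intron of Jazf1 with Tax1bp1 as its nearest start 88.1 kb away (chr6:52801877-52802559), fell in control eTregs, from 10.5, 9.09 and 9.81 to 2.6, 4.20 and 4.15 CPM (-1.39 ± 0.40, adjusted p = 0.0357). Without Atg14 it had 6.30, 8.56, 5.26 and 11.6 CPM in cTregs and 3.00, 5.02, 5.82 and 6.16 CPM in eTregs, which overlapped (-0.65, adjusted p = 0.238). At the 2 promoter regions of Tax1bp1 the fold changes lay between -0.34 and 0.10.

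Atg10 had 20 of the 156 regions, more than any other member, and gave 6 of the 17 calls outside promoters. An intronic region 75.5 kb downstream of the nearest annotated Atg10 start, an alternative one (chr13:91091367-91092153) was higher in eTregs in both genotypes, with 24.4, 34.5 and 24.1 CPM in control cTregs, 18.5, 20.6, 25.8 and 47.9 in Atg14-deficient cTregs, 78.7, 85.5 and 63.3 in control eTregs and 69.5, 46.4, 56.6 and 62.7 in Atg14-deficient eTregs. Replicate 4 of the deficient cTregs reached into the range of the deficient eTregs, and the control groups were far apart. The log2 fold changes were 1.44 ± 0.25 (adjusted p = 0.00164) and 1.05 ± 0.22 (adjusted p = 0.00428). The region next to it (chr13:91093210-91093458) rose in controls, from 7.33, 4.79 and 6.24 to 13.0, 11.8 and 15.5 CPM (1.14 ± 0.34, adjusted p = 0.0475). Its values without Atg14, 6.30, 8.56, 8.41 and 8.35 in cTregs and 14.1, 12.6, 12.7 and 5.65 CPM in eTregs, overlapped at 1 eTreg library (0.49, adjusted p = 0.309).

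The remaining Atg10 regions went both ways. In an intron 11.5 kb from an alternative start (chr13:91178443-91179135), control cTregs had 6.35, 10.1 and 5.35 and control eTregs 18.2, 12.6 and 33.9 CPM (1.55 ± 0.35, adjusted p = 0.00865), and deficient cTregs 15.1, 6.23, 8.94 and 8.35 and deficient eTregs 19.5, 18.4, 14.3 and 15.4 CPM (0.81 ± 0.31, adjusted p = 0.0858). At 2.67 kb from that start (chr13:91169663-91170265), control cTregs had 4.89, 5.74 and 11.6 and control eTregs 1.95, 1.57 and 1.80 CPM (-2.0 ± 0.57, adjusted p = 0.0369), and deficient cTregs 3.78, 7.79, 7.36 and 5.78 and deficient eTregs 4.19, 6.28, 2.65 and 0.514 CPM (-0.93, adjusted p = 0.22). The intergenic region 81.3 kb upstream of the gene's first start (chr13:91305606-91306400) had 23.5, 31.5, 32.6 and 21.5 CPM in deficient cTregs and 8.99, 13.4, 14.6 and 9.76 CPM in deficient eTregs (-1.23 ± 0.25, adjusted p = 0.00203), and 37.2, 22.7 and 27.6 against 11.4, 16.8 and 22.5 CPM in controls (-0.77 ± 0.27, adjusted p = 0.0898). In controls the states did not overlap at any of these 3, and without Atg14 they overlapped at the first and second but not at the third. With the replicate number as a block, the first was also called without Atg14 and the third also in controls. A further Atg10 region lay 11.7 kb downstream of the alternative start named for the first and second (chr13:91155487-91155746). It was lower in deficient eTregs, at -1.70 on the log2 scale (adjusted p = 0.035).

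Wipi1 carried an intronic region 19.7 kb from its start (chr11:109591540-109591904) that was lower in eTregs in both genotypes. It had 10.3, 17.2 and 16.1 CPM in control cTregs, 13.4, 21.8, 14.5 and 11.2 in Atg14-deficient cTregs, 5.20, 2.62 and 5.23 in control eTregs and 5.99, 6.69, 6.35 and 3.60 in Atg14-deficient eTregs. Every eTreg library was below every cTreg library. Between the states the log2 fold changes were -1.72 ± 0.36 (adjusted p = 0.00538) and -1.43 ± 0.32 (adjusted p = 0.00451). The Wipi1 promoter itself was not called between the states (-0.38 and 0.23).

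Sqstm1 encodes p62, the best known cargo receptor, and its upstream region at 2.36 kb (chr11:50213008-50213356) was higher in eTregs in both genotypes. It had 4.89, 9.33 and 4.46 CPM in control cTregs, 8.82, 3.89, 3.94 and 14.8 in Atg14-deficient cTregs, 18.9, 18.6 and 13.7 in control eTregs and 21.3, 16.7, 16.9 and 27.5 in Atg14-deficient eTregs. Within each genotype the states did not overlap. Both log2 fold changes were 1.40, with standard errors of 0.39 in controls and 0.34 without Atg14 (adjusted p = 0.0324 and 0.00902). The call in controls was lost without control cTreg replicate 1 or 3, without control eTreg replicate 1 or 2 and with scaling by the promoter total (1.23 to 1.36), and that without Atg14 was lost without Atg14-deficient cTreg replicate 3 (1.15). At the Sqstm1 promoter (chr11:50210023-50211135) they were -0.04 and 0.01.

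Atg7 and Vmp1 had intronic regions that were higher in eTregs. In Atg7, 4.66 kb from an alternative start (chr6:114656874-114657280) there were 20.5, 21.1 and 8.92 CPM in control cTregs, 19.3, 9.34, 11.6 and 19.9 in Atg14-deficient cTregs, 31.2, 45.1 and 22.9 in control eTregs and 28.2, 23.4, 40.5 and 33.6 in Atg14-deficient eTregs. At 5.57 kb from it (chr6:114657815-114658157) there were 3.67, 9.33 and 2.68, then 8.40, 0.779, 6.84 and 9.64, then 13.0, 20.5 and 16.2, and then 15, 14.6, 11.6 and 19.5 CPM. At both, every eTreg library was above every cTreg library. The first was called without Atg14 (1.08 ± 0.28, adjusted p = 0.0139) and not in controls (0.92 ± 0.31, adjusted p = 0.0773), and the second in controls (1.60 ± 0.46, adjusted p = 0.0398) and just not without Atg14 (1.23 ± 0.40, adjusted p = 0.0505). With the replicate block, with GC-content offsets and by DESeq2 both were called in both genotypes. The first lost its call without Atg14-deficient cTreg replicate 3 or eTreg replicate 3, and the second in each fit that left out 1 control library other than cTreg replicate 2 and with scaling by the promoter total. With counts thinned to the smallest total both lost these calls. In Vmp1 (chr11:86652500-86653053, 18.4 kb from an alternative start) the values were 4.64, 8.14 and 2.68, then 3.36, 2.34, 4.21 and 4.50, then 7.16, 13.6 and 9.73, and then 10.8, 12.6, 8.47 and 15.4 CPM. The deficient groups were fully apart (1.68 ± 0.36, adjusted p = 0.00377) and the control groups overlapped (0.93 ± 0.39, adjusted p = 0.172).

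The other calls were all higher in Atg14-deficient eTregs: a region in Atg7 9.86 kb from another alternative start (1.34, adjusted p = 0.0279), 2 at Optn, a receptor for damaged mitochondria (1.24 in a coding exon and 1.83 in an intron, adjusted p = 0.0465 and 0.0331), and the weak Gabarapl2 region in Adat1 (2.10, adjusted p = 0.0439). Control libraries had a fold change of -0.02 at the last, the only call whose sign differed between genotypes. Leaving out 1 library left between 3 and 9 nearest calls in controls, with 3 without control cTreg replicate 1, 4 without control cTreg replicate 3 or control eTreg replicate 1 or 2, and 5 without control eTreg replicate 3. Without Atg14 the 19 calls became 9 without Atg14-deficient cTreg replicate 3 and 10 without cTreg replicate 2 or eTreg replicate 4. The Tax1bp1 region 21.8 kb upstream, the Atg10 region at 75.5 kb and the Wipi1 region at 19.7 kb were called in each of these fits in both genotypes.

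**Figure D5:**
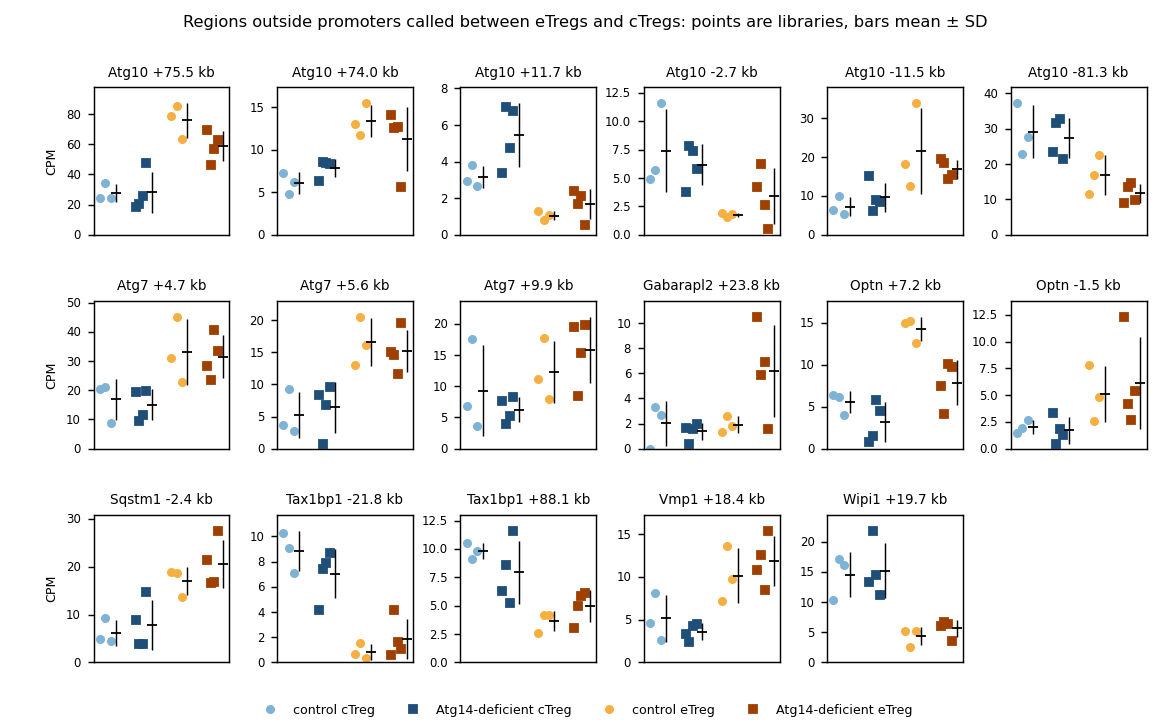
CPM (linear axes from 0) at the 17 member regions outside promoters called between eTregs and cTregs in either genotype, titled by nearest member and distance from its nearest annotated start, alternative starts included, with points for libraries and bars for the mean ± SD. Of the 17, 11 were higher in eTregs, as at Sqstm1, and 6 lower, as at Wipi1 and Tax1bp1.

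Summed over the module, the promoter values were as follows. The 54 promoter regions together had 2230 ± 92.3 CPM (SD, n = 3) in control cTregs, 2160 ± 39.8 (SD, n = 4) in Atg14-deficient cTregs, 2340 ± 16.7 (SD, n = 3) in the eTregs of controls and 2340 ± 81.6 (SD, n = 4) in eTregs without Atg14. The eTreg libraries, 2241 to 2439, overlapped the cTreg libraries, 2110 to 2310. The regions outside promoters summed to between 617 and 861 CPM in cTregs and between 845 and 990 CPM in eTregs, an overlap at the edge. As a share of all counts in promoter regions, the module took between 0.392% and 0.444%.

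Motifs were searched on both strands and are counts of letters, not of bound sites. The RefSeq promoter windows of GRCm38 (250 bases before to 50 after a start) held 40 windows of 33 members, among 21263 windows of 17492 genes. The E-box CACGTG, for TFEB and its relatives, regulators of autophagy and lysosome genes, was in 3 member windows (Atg3, Atg5 and Atg7), which is 7.5% against 7.84% of all windows. The ETS motif CCGGAAG was in 6 (15% against 11.6%), at Atg101, Atg3, Gabarapl2, Tecpr1, Tmem41b and Vmp1. RUNX was in 2 (5% against 4.71%), the TCF/LEF motif CTTTGAA was in 1 (2.5% against 4.54%), and its other form, CTTTGAT, was also in 1 (2.5% against 3.22%). Neither the forkhead nor the AP-1 motif was in any, beside 3.01% and 6.99% of all windows. At these small counts, a single window moves a share by several percentage points.

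In the central 200 bases of the 93 tested regions outside promoters, AP-1 was in 15 (16.1% against 13.8% of all 47042 such regions), RUNX in 17 (18.3% against 12.1%), forkhead in 5 (5.38% against 3.43%) and the E-box in 3 (3.23% against 4.42%). Among the 11 called higher in eTregs AP-1 was in 3, those of Sqstm1, Vmp1 and Atg7 printed above, and among the 6 called lower it was in none. The E-box of the Wipi1 region was the only one among the 17. No 2 matches overlapped in the sequences printed.

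Regulators and partners of the machinery were counted in a list of 27 further genes (Vps34 complexes, transcriptional and kinase regulators, lysosome fusion), with 33 tested promoter regions. None of those passed the adjusted threshold between genotypes in either state with edgeR, and at the unadjusted threshold 1 did in eTregs and 0 in cTregs, where 4.36% and 1.98% of all promoter regions did. Between the states 2 of the 33 were called in controls and 3 without Atg14, beside 2.74% and 7.7% of all promoter regions. Between the states, Mitf, a relative of TFEB, rose at its promoter in eTregs in both genotypes (0.71 ± 0.15, adjusted p = 0.00487 in controls, and 0.64 ± 0.13, adjusted p = 0.00244 without Atg14). Prkaa1, the catalytic subunit of AMPK that activates ULK, fell in both (-1.01 ± 0.21, adjusted p = 0.00406, and -0.68 ± 0.18, adjusted p = 0.0148). Pik3r4, the scaffold subunit of Vps34, rose without Atg14 (0.63 ± 0.18, adjusted p = 0.0268). Of the 139 tested regions nearest to these genes, 3 were called in controls and 8 without Atg14, where 5.3% and 9.81% of all tested regions were. Among those named by the rule, a region near Uvrag fell in control eTregs (-1.07, adjusted p = 0.03), with means of 18.8 ± 4.78 CPM (SD, n = 3) in control cTregs and 8.67 ± 2.02 (n = 3) in control eTregs beside 22.7 ± 7.34 (n = 4) and 22.3 ± 4.24 (n = 4) without Atg14. At the unadjusted threshold 9 of the 139 passed for Atg14 loss in eTregs, 8 higher and 1 lower, where 6.36% of all regions did, and 2 passed in cTregs, where 3.34% did. A region near Foxo3 fell in Atg14-deficient eTregs (-1.58, adjusted p = 0.0118). The call near Foxo1, higher in Atg14-deficient eTregs (adjusted p = 0.011), rests on few counts, with 0.263 ± 0.526 CPM (SD, n = 4) in cTregs and 3.56 ± 2.5 CPM (SD, n = 4) in eTregs without Atg14.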

How the data were processed

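ATAC-seq of 14 libraries was analysed from the table of counts that the authors deposited, in which each value is the number of reads of a library in a merged region, not normalized. Their methods give adaptor trimming, BWA alignment, removal of duplicates (Picard), an offset for Tn5 insertion, selection of nucleosome-free fragments, MACS2 peaks per library, merging of reproducible peaks and counting with bedtools. The submitters' processing notes name cutadapt 1.9, Picard 1.65 and MACS2 2.1.0.20150603. The notes give GRCm38 and the methods mm9. Of 67254 regions, 67207 were on assembled chromosomes and all of those fitted inside GRCm38's ends, and 11820 of 21774 protein-coding genes had a start within 200 bp of a region, against 1315 after shifting regions by 20000 bp, so GRCm38 (RefSeq GRCm38.p6) was used.

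Counts were scaled by library totals (2242983 to 5548189), and regions kept by filterByExpr were fitted with edgeR 4.0.16 (R 4.3.3, limma 3.58.1; quasi-likelihood, robust, 4 group means, all libraries), after tests on simulated data. Benjamini-Hochberg adjustment ran over all 61366 regions. A call required an adjusted p under 0.05 with a log2 change of more than 0.5. DESeq2 1.42.0, other scalings, filters, GC offsets, thinning, promoter windows, a replicate block and leaving out libraries were alternatives. Cited are regions past the threshold (up to 10 per contrast, by p), or else the 3 smallest unadjusted p, and the 3 highest and lowest genes. Members and lists were chosen with earlier results of these data known. Python 3.11.15, pandas 2.3.3 and pysam 0.24.0 served for annotation, and matplotlib 3.10.9 for plots. Lengths and GC content come from the table and the reference. A marker of cTregs is not reported here.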

Additional observations from a re-analysis of the deposited data

Results flagged for a closer look

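Among 28 named regions, 56 groups of 4 libraries were examined for a library far from the rest by Dixon's criterion, which flags about 1 group in 20 by chance, and 3 were flagged. At the Wipi1 promoter, Atg14-deficient eTreg replicate 4 stood highest at 102 CPM, above 74.0, 69.9 and 74.9. At the Atg10 region chr13:91093210-91093458, Atg14-deficient cTreg replicate 1 stood lowest at 6.30 CPM, below 8.56, 8.41 and 8.35. Upstream of Gabarapl2, Atg14-deficient cTreg replicate 4 stood highest at 24.4 CPM, above 15.1, 15.6 and 15.2.

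Effects of Atg14 loss that differed between eTregs and cTregs by the interaction term were flagged at 2 promoters, 0.61 at Wipi1 and -0.94 at Wdr45 on the log2 scale, with unadjusted p-values of 0.00675 and 0.0485 and adjusted p-values of 1 from edgeR.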

How the results depend on the processing

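The counts of promoter and nearest regions called by genotype or by the interaction stayed at 0 under every alternative and every omitted library, at the adjusted threshold. Between the states in controls, nearest calls went from 9 to 14 with the replicate block and 16 with the block and GC offsets, which also called 1 promoter region (Atg4c), and to 6 with thinned counts or scaling by the promoter total. Without Atg14, promoter calls went from 7 to 4 with GC offsets and 2 at a log2 fold change beyond 1. All member calls together went there from 19 to 25 with the block, and to 15 with thinned counts or scaling by the promoter total. The median promoter log2 fold change without Atg14 between the states went from 0.20 to 0.07 with GC offsets, 0.07 with the block and GC offsets and 0.12 within 500 bp of a start, and that of Atg14 loss in eTregs from 0.12 to 0.02 with the block and GC offsets. The medians and fold changes of named regions kept their sign, apart from the cTreg median that went to 0.00 below, and the causes were not tested. At the unadjusted threshold, promoter calls of Atg14 loss in eTregs did not keep their direction, with 1 higher in the report, 0 with the replicate block (Atg4d at 0.58 lost), 3 lower with the block and GC offsets, and 1 lower without control eTreg replicate 1. Regions called between the states in both genotypes went from 4 to 9 with the block, 7 by DESeq2 or GC offsets and 3 with scaling by the promoter total.

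Leaving out 1 library at a time gave 3 to 9 nearest calls in controls, 9 to 22 nearest and 2 to 8 promoter calls without Atg14, and medians of 0.12 to 0.25 between the states without Atg14 (0.12 without Atg14-deficient eTreg replicate 4), 0.12 to 0.18 in controls, 0.05 to 0.16 for Atg14 loss in eTregs, -0.11 to 0.00 in cTregs (0.00 without control cTreg replicate 1) and 0.05 to 0.12 for the interaction.

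As to pairing, libraries of eTregs and cTregs with 1 number deviated together with r between 0.0543 and 0.243 across regions, and each of the 14 libraries correlated best with its own number (at most 0.0963 with another), which is a hint from the data and not the design. Since 1 pair was below 0.1 and the labels name no shared mouse, the block was kept as an alternative. The main fit leaves any pairing out. Between the states and for the interaction, the block was the number within a genotype. Between genotypes it joined control and Atg14-deficient libraries of 1 number, which are different chimeras. Such libraries deviated together with r between -0.217 and 0.0914, so the blocked counts by genotype follow no pairing in the design. Depth limits the weak regions most, with a median of 23 counts per region and library.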
